A study of Mus musculus with 6 samples.

Results

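The genes described are 10 genes of ovarian steroid synthesis and gonadotropin reception, *Star*, *Cyp11a1*, *Cyp17a1*, *Cyp19a1*, *Hsd3b1*, *Hsd17b1*, *Fdx1*, *Scarb1*, *Fshr* and *Lhcgr*. They were chosen by name, and their probes were found through the transcript that each probe is annotated to. The 10 genes are represented by 13 of the 55681 probes other than controls, and they are among 20284 genes with a symbol. *Star*, *Fdx1* and *Scarb1* have 2 probes each, to the same transcript, and the other genes have 1. RNA was taken from ovary, uterus and liver of immature female CD-1 mice, aged 24 days by the labels, which had received fluorene-9-bisphenol (BHPF), a bisphenol used in plastics, at 50 mg per kg body weight or peanut oil, the control, once a day for 3 days into the stomach. Each of the 6 groups, 3 tissues by 2 treatments, is 1 one-colour Agilent array hybridised with a pool of RNA from 3 mice. There was no second pool of any group, so that the spread between animals was not measured and no test of BHPF within a tissue is given.

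Steroid hormones are made from cholesterol. Cholesterol is taken up from lipoproteins and carried into the mitochondrion, where its side chain is cleaved to give pregnenolone, and enzymes of the endoplasmic reticulum then turn pregnenolone into progesterone, androgens and oestrogens. In the follicle, theca cells make androgens under luteinizing hormone, and granulosa cells turn these androgens into oestrogens under follicle-stimulating hormone. Both hormones act through receptors at the cell surface that raise cyclic AMP.

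The upstream sequences below stand for 3 patterns of tissue level found on the arrays. *Fshr* and *Lhcgr* were well above background in the ovary alone, *Hsd3b1* was bright in ovary and liver, and *Fdx1* was bright in all 3 tissues. Each sequence holds the 250 bases before the annotated start of the gene, 5′ to 3′ on the strand of the gene, from RefSeq on GRCm38.p6. Windows were found for 6 of the 10 genes. Capitals mark the letters of the motifs searched.
Fshr, chr17:89200676-89200925, minus strand: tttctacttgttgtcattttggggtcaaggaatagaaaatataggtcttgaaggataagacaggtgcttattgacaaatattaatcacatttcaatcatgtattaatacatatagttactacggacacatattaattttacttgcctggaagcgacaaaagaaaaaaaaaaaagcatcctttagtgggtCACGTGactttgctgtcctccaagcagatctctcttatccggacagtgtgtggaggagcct
Lhcgr, chr17:88792015-88792264, minus strand: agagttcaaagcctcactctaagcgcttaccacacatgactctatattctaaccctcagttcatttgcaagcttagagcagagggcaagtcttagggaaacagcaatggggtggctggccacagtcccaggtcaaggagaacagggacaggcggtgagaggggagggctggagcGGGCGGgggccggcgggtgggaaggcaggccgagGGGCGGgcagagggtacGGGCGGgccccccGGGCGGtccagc
Hsd3b1, chr3:98859795-98860044, minus strand: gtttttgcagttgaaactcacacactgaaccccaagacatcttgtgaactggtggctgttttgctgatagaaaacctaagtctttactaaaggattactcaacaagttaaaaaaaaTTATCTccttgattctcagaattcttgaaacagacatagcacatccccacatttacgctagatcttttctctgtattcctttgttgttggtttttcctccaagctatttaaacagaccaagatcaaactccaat
Fdx1, chr9:51963603-51963852, minus strand: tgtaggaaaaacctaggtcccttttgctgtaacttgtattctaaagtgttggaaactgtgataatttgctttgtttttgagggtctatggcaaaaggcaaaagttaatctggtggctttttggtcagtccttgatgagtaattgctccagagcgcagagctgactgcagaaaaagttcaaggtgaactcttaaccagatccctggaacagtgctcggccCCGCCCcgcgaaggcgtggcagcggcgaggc
The motifs were searched on both strands, in windows that run from 250 bases before the start to 50 bases after it. They were AAGGTCA and AAGGCCA, forms of the site of the steroidogenic nuclear receptors *Nr5a1* and *Nr5a2*, the cyclic AMP response element TGACGTCA, the TATA box TATAAA, the GATA site AGATAA, the E-box CACGTG and the Sp1 site GGGCGG. Of all 32851 windows they were found in 4.72%, 6.20%, 1.79%, 13.6%, 11.2%, 7.15% and 35.7%, in that order. The window of *Fshr* held 1 E-box, which began at base −61 from the start. The window of *Lhcgr* held the Sp1 letters 4 times, beginning at −76, −42, −25 and −12. *Fshr* and *Lhcgr* lie near each other on chromosome 17, with 2 genes between them, 0 of which code for protein. The window of *Hsd3b1* held 1 GATA site on the opposite strand, at −134, and that of *Fdx1* held 1 Sp1 site on the opposite strand, at −31. *Cyp11a1* has windows at 2 starts, and only the first held a motif, an Sp1 site at 5 bases after the start. *Cyp19a1* has windows at 3 starts. The first held AAGGCCA at 18 bases after the start, the second TATAAA on both strands in overlapping letters at −31 and −29, and the third TATAAA at −157 and −143. A match of letters is a description of the window.

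The level of a probe is the log2 of its background-subtracted intensity minus the 75th percentile of its array, and whether a probe lay well above background is a call of the scanner software. The share of probes well above background ran from 61.3% (BHPF liver) to 74.5% (control ovary). The control arrays came before the BHPF arrays on a single slide, and the place on the slide and the treatment cannot be told apart. A second deposit of the authors holds log2 values, and in it both uterus columns carried the scanner data of the opposite treatment, for 100% of 38802 probes within 0.01 on the log2 scale, while 3.32% of the probes matched as headed. The conditions under which the scanner files were deposited are used here. If the headings of the table are right, the sign of every uterus ratio below is turned. Markers of oocytes, granulosa cells, Müllerian duct tissue and hepatocytes went with the labelled tissues in most cases. Of 8 oocyte markers 8, and of 7 granulosa cell markers 5, were higher in ovary than in uterus, and 4 of 5 markers of Müllerian duct tissue were lower. Of 5 markers of theca and interstitial cells only 1 was called higher in ovary than in uterus, *Cyp17a1*, itself one of the 10 genes. Of 8 hepatocyte markers 7 were lower in ovary than in liver. The granulosa cell marker *Foxl2* went against its label, as neither of its probes was called different between ovary and uterus (mean difference 0.08, adjusted p at least 0.19). On the BHPF uterus array 8 of 8 hepatocyte markers were higher than on the control uterus array, by 1.80 to 5.49 on the log2 scale.

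The first question was where the 10 genes are expressed. All 10 were well above background on both ovary arrays. On the uterus arrays 7 genes were well above background in control and 6 with BHPF, and on the liver arrays 6 and 5. In a limma fit to the 6 arrays with tissue and treatment as terms, 8 of the 10 genes were called higher in ovary than in uterus, at an adjusted p below 0.05 and at least 2-fold on every probe of the gene. Of all 44119 probes tested 8.53% were called higher in ovary than in uterus and 9.33% lower. The same 8 genes were called higher in ovary than in liver, against 22.4% of all probes called higher and 16.9% called lower, and 6.22% of all probes were called higher in both comparisons. *Cyp11a1*, *Fshr* and *Lhcgr* entered the fit only through the ovary arrays, where they are high, so that their calls are a description. In the authors' log2 values, which are missing for dim probes, 5 genes were called higher against uterus and 4 against liver. The remaining 2 genes, *Fdx1* and *Scarb1*, were called different in neither comparison by both of their probes. The fit takes the 2 arrays of a tissue, which come from different pools and treatments, as its samples. Its treatment term takes up any difference between control and BHPF arrays that the tissues share. The errors of the fit hold the remainder, in which pool spread and a BHPF effect that differs between tissues cannot be told apart. They are therefore no measure of the spread between pools alone. In bulk tissue, fewer cells of a type and less RNA per cell cannot be told apart.

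**Figure D1:**
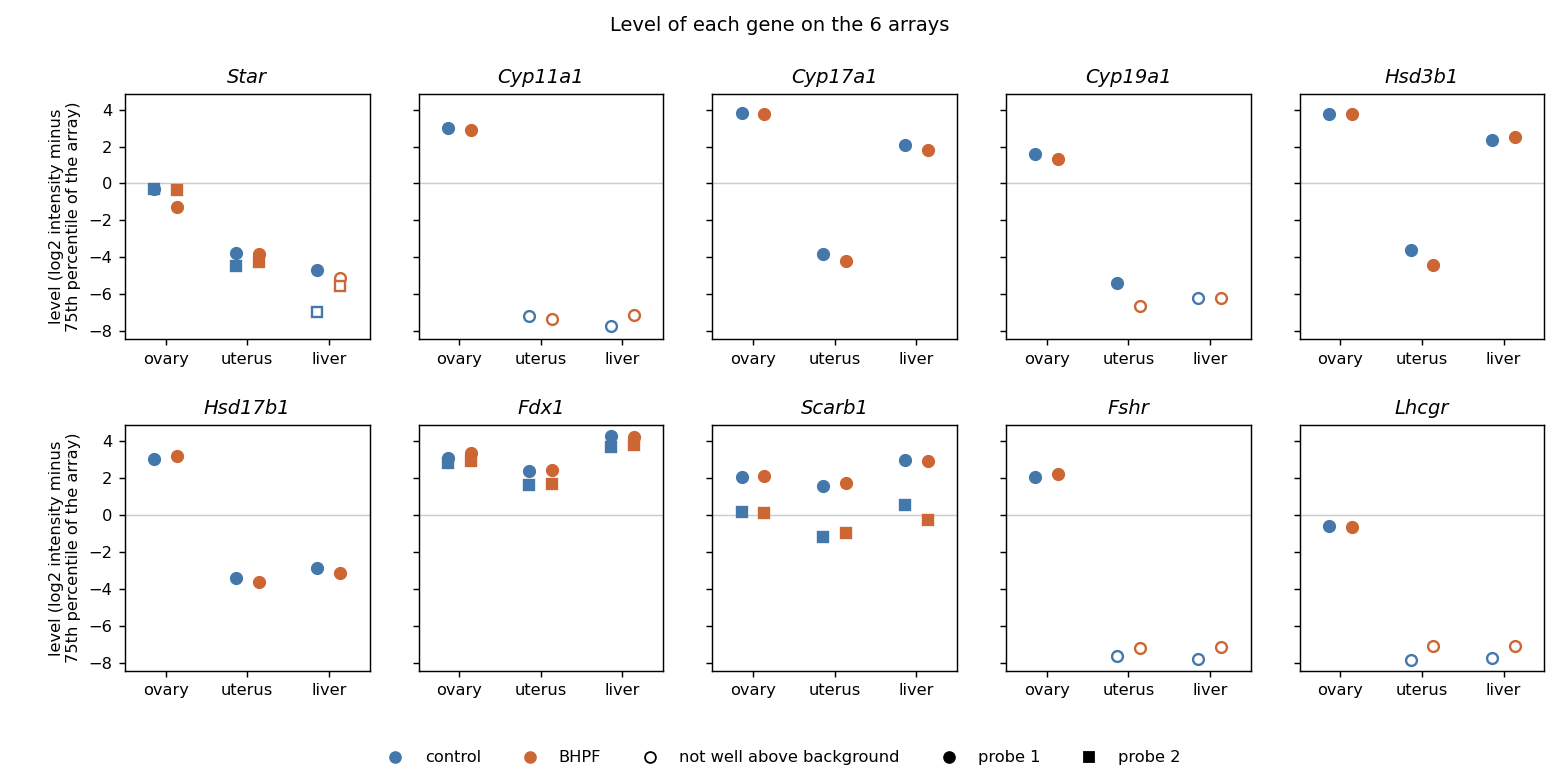
Level of each of the 10 genes on the 6 arrays, as log2 intensity minus the 75th percentile of the array, with 1 point per probe and array, control in blue, BHPF in orange and open symbols where the probe was not well above background. For the 8 genes called higher in ovary, control and BHPF points of a tissue lie closer together than the ovary lies to the uterus, while the liver points of the second *Scarb1* probe lie on both sides of its ovary points, and *Cyp11a1*, *Fshr* and *Lhcgr* have filled points in the ovary only.

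The genes of cholesterol supply to the mitochondrion differed from each other in their pattern. *Scarb1*, the receptor that takes up cholesteryl esters from high-density lipoprotein, had levels on its first probe of 2.06 and 2.12 in the control and BHPF ovary, 1.60 and 1.76 in the uterus and 2.98 and 2.92 in the liver. On its second probe the levels were 0.17 and 0.10 in the ovary, −1.19 and −0.97 in the uterus and 0.56 and −0.27 in the liver. The order on the first probe was liver, ovary, uterus with no overlap between tissues, while on the second probe the liver arrays lay on both sides of the ovary arrays. Neither probe passed the test against the uterus, with differences of 0.41 ± 0.14 (SE, adjusted p = 0.11) and 1.22 ± 0.30 (SE, adjusted p = 0.060) by limma. Against the liver, the first probe differed by −0.86 ± 0.14 (SE, adjusted p = 0.0099), which is under 2-fold, and the second by −0.0092 ± 0.30 (SE, adjusted p = 0.98).

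*Star*, the protein that moves cholesterol to the inner mitochondrial membrane, was high in the ovary. Its first probe had levels of −0.29 and −1.26 in the control and BHPF ovary and −3.78 and −3.83 in the uterus. In the liver it had a level of −4.70 in control, and it was not well above background with BHPF. Its second probe had levels of −0.29 and −0.35 in the ovary and −4.46 and −4.24 in the uterus, and it was not well above background on either liver array. No ovary value overlapped with a value of another tissue. The ovary was 8.20-fold and 16.4-fold above the uterus on the first and second probe (log2 differences of 3.03 ± 0.26 and 4.03 ± 0.40, SE, adjusted p = 0.0063 and 0.0083 by limma). Against the liver the control arrays, both above background, differed by 4.42 on the first probe, and the ovary was at least 30.8-fold higher on the second.

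*Cyp11a1*, the enzyme that cleaves the cholesterol side chain, had levels of 3.00 and 2.90 in the control and BHPF ovary. It was not well above background on any of the uterus or liver arrays. The ovary was therefore at least 334-fold above the uterus and at least 297-fold above the liver, where here and below the dim arrays were set at the lowest signal called well above background. The limma adjusted p of 0.0018 and 0.00066, and those of the other bounds below, come from the fit to the dim arrays' own values, and these genes entered that fit through the ovary arrays. *Fdx1*, the ferredoxin that carries electrons to *Cyp11a1* and other mitochondrial P450 enzymes, was measured in every tissue. Its first probe had levels of 3.09 and 3.34 in the ovary, 2.41 and 2.45 in the uterus and 4.27 and 4.24 in the liver, and its second 2.81 and 2.92, 1.61 and 1.70, and 3.70 and 3.79. The order was liver, ovary, uterus on both probes, with no overlap between tissues. Each probe gave an adjusted p below 0.05 in both comparisons, but only 1 probe in each reached 2-fold. Against the uterus the differences were 0.79 ± 0.14 and 1.21 ± 0.12 (SE, limma adjusted p = 0.031 and 0.0089), and against the liver −1.04 ± 0.14 and −0.88 ± 0.12 (SE, limma adjusted p = 0.0073 and 0.0076). The difference from liver depended on the scaling. Its mean over both probes was −0.96, it was −1.28 with the 50th percentile, where both probes were called lower in ovary, and it was −0.02 with quantile normalization, where the higher limma adjusted p was 0.68.

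*Hsd3b1*, which turns pregnenolone into progesterone, and *Cyp17a1*, which makes androgen precursors in theca cells, were bright in ovary and liver. *Hsd3b1* had levels of 3.78 and 3.79 in the control and BHPF ovary, −3.63 and −4.40 in the uterus and 2.36 and 2.50 in the liver. *Cyp17a1* had levels of 3.84 and 3.74 in the ovary, −3.82 and −4.22 in the uterus and 2.10 and 1.81 in the liver. For both genes the order was ovary, liver, uterus, and no 2 tissues overlapped. *Hsd3b1* was 223-fold higher in ovary than in uterus and 2.56-fold higher than in liver (log2 differences of 7.80 ± 0.28 and 1.36 ± 0.28, SE, limma adjusted p = 0.0018 and 0.019). *Cyp17a1* was 225-fold higher than in uterus and 3.57-fold higher than in liver (7.81 ± 0.15 and 1.84 ± 0.15, SE, limma adjusted p = 0.0018 and 0.0021).

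The probe of *Hsd3b1* belongs to a family of near-identical genes, and a probe may bind the RNA of a relative. *Hsd3b6* had levels of 2.99 and 3.23 in the control and BHPF ovary and 2.93 and 3.11 in the liver, and it was not called different between those tissues (difference 0.09, limma adjusted p = 0.80). *Hsd3b5* was not well above background on the ovary or uterus arrays and had levels of 2.18 and 1.86 in the liver. *Hsd3b3* had levels of 4.04 and 4.15 in the liver against −4.75 and −4.70 in the ovary. How much of the *Hsd3b1* signal in ovary and liver came from relatives was not tested.

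*Hsd17b1*, which reduces oestrone to oestradiol in granulosa cells, had levels of 3.06 and 3.22 in the control and BHPF ovary, −3.40 and −3.61 in the uterus and −2.89 and −3.15 in the liver. The liver arrays lay just above the uterus arrays, and both were far below the ovary. The ovary was 100.1-fold above the uterus and 71.7-fold above the liver (log2 differences of 6.65 ± 0.17 and 6.16 ± 0.17, SE, limma adjusted p = 0.0018 and 0.00066). *Cyp19a1*, the aromatase that turns androgens into oestrogens, had levels of 1.59 and 1.32 in the ovary. It was well above background on 1 of 2 uterus arrays, the control, at −5.42, and on neither liver array. Between the control arrays, both above background, ovary exceeded uterus by 7.01 on the log2 scale. The fit, which takes the dim BHPF uterus array at its own value, gave 7.49 ± 0.35 (SE, limma adjusted p = 0.0022). The ovary was at least 106-fold above the liver (limma adjusted p = 0.000799), although after normexp the measured difference, 5.96 on the log2 scale, lay under that bound of 6.72.

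The receptors were well above background on both ovary arrays and on no other array. *Fshr*, the receptor of follicle-stimulating hormone on granulosa cells, had levels of 2.04 and 2.23 in the control and BHPF ovary. It was at least 190-fold higher there than in uterus and at least 169-fold higher than in liver (limma adjusted p = 0.0018 and 0.00066). *Lhcgr*, the receptor of luteinizing hormone on theca cells and mature granulosa cells, had levels of −0.60 and −0.67 in the ovary. It was at least 27.8-fold higher there than in uterus and at least 24.7-fold higher than in liver (limma adjusted p = 0.0019 and 0.000703). For *Cyp11a1*, *Fshr* and *Lhcgr* uterus and liver have no order, since neither was measured above background.

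**Figure D2:**
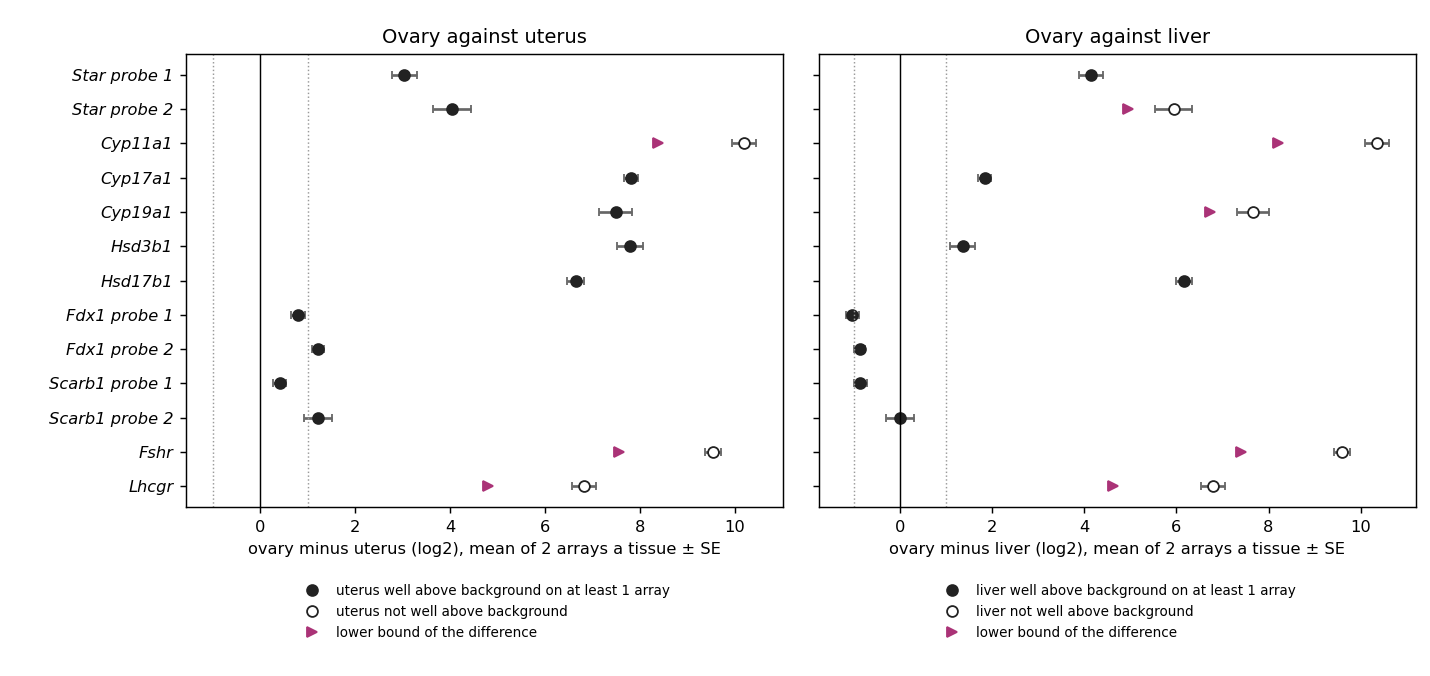
Difference of each probe between ovary and uterus (left) and ovary and liver (right) on the log2 scale, as the mean of 2 arrays a tissue ± SE from the limma fit, with open circles where the other tissue was not well above background, triangles for the lower bound there and dotted lines at 2-fold. The probes of *Fdx1* and *Scarb1* lie between −1.04 and 1.22 and those of the other genes between 1.36 and 10.36.

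The study then asked what BHPF changed. In the ovary 0 of the 10 genes differed by at least 2-fold between the BHPF and the control array, where 1.27% of all 41676 evaluated probes did, 0.681% higher and 0.593% lower. The median log2 ratio of BHPF to control was −0.04 over the 10 genes and 0.0036 over all evaluated probes. With 4 genes above 0 and 6 below, 9 of the 10 lay within 0.31 of 0, as 83.7% of all probes did. This distance is 2 SD of the ratio of 1 probe as judged from repeated spots on an array (SD 0.11 for a level, 0.16 for a ratio), and it leaves out the spread between pools.

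The gene outside that range was *Star*, with a mean log2 ratio of −0.51 in the ovary. Its probes disagreed. The first went from −0.29 to −1.26, a ratio of −0.97, and the second from −0.29 to −0.35, a ratio of −0.06. Both probes are annotated to 1 transcript, and which of them follows the *Star* RNA was not tested. Among the other genes of the pathway the ratios were −0.10 for *Cyp11a1*, −0.10 for *Cyp17a1*, 0.0039 for *Hsd3b1*, 0.16 for *Hsd17b1* and −0.27 for *Cyp19a1*. They were 0.18 for *Fdx1*, −0.01 for *Scarb1*, 0.19 for *Fshr* and −0.07 for *Lhcgr*. After background correction by normexp the ratios of *Cyp11a1* and *Cyp17a1* were 0.14 and 0.15 and those of *Hsd3b1* and *Hsd17b1* −0.30 and −0.06, so that these 4 signs have no firm direction.

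**Figure D3:**
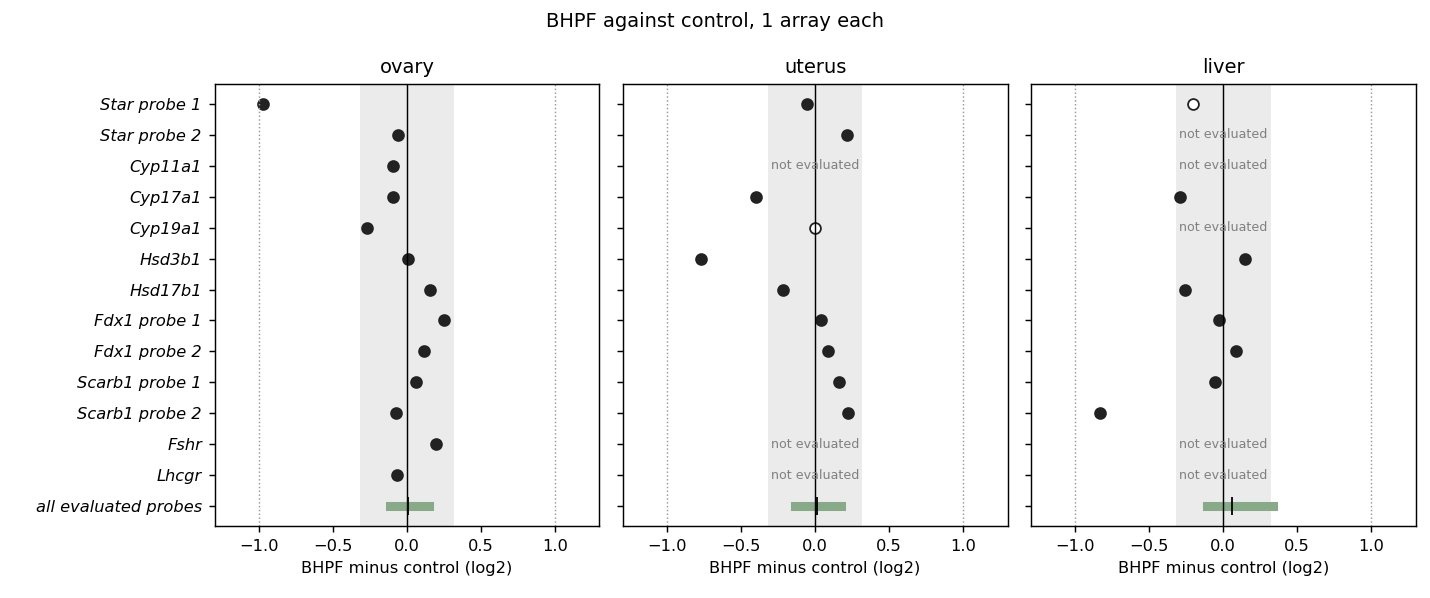
Log2 ratio of BHPF to control for each probe in ovary, uterus and liver, 1 array each, with open circles for bounds, grey bands at 2 SD of repeated spots, dotted lines at 2-fold and green bars from the 25th to the 75th percentile of all evaluated probes with their median. In the ovary every probe lies within the band except the first probe of *Star* at −0.97.

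In the uterus 7 of the 10 genes could be evaluated, and 0 differed by at least 2-fold, where 2.65% of 38803 probes did, 1.88% higher and 0.773% lower. *Hsd3b1* went from −3.63 in control to −4.40 with BHPF, a log2 ratio of −0.77, and *Cyp17a1* from −3.82 to −4.22, a ratio of −0.40. Of the 7 genes 5 lay within 2 SD of repeated spots, as 77.3% of all probes did, and *Hsd3b1* and *Cyp17a1* did not. Both were dim on the BHPF uterus array, where the lowest signal called well above background was at −5.07. The SD of repeated spots was pooled over bright and dim probes, so that the noise of such dim spots is not known from it. *Hsd17b1* had a ratio of −0.21, *Scarb1* of 0.19, *Star* of 0.08 and *Fdx1* of 0.07. *Cyp19a1* was well above background in control only. On the BHPF array the lowest signal called well above background gives no difference, so that its ratio was set to 0. It is counted among the 5 genes within 2 SD by that rule and not by a measured ratio. By its own dim value on the BHPF array its ratio was −1.24, outside that range. On the BHPF uterus array 8 of 8 hepatocyte markers were higher than on the control uterus array. *Hsd3b1* and *Cyp17a1* were bright in liver too. The control liver exceeded the BHPF uterus by 6.95 on the log2 scale for *Tat* and by 2.58 to 4.59 for the other hepatocyte markers. The excess was 6.32 for *Cyp17a1* and 6.75 for *Hsd3b1*. The part of the hepatocyte markers in the ratios of the uterus was not tested. Other markers were lower on the BHPF uterus array. Of 4 adipocyte markers evaluated 3 were at least 2-fold lower (median −2.08, summed level 3.55 in control and 1.05 with BHPF), and of 6 neutrophil markers 3 (median −0.76, summed level 20.4 and 17.6). Without *Csf3r*, the brightest neutrophil marker, that sum was 6.13 in control and 3.01 with BHPF. Their part in the ratios of the uterus was not tested.

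In the liver 6 of the 10 genes could be evaluated, and 0 differed by at least 2-fold, where 7.09% of 36579 probes did, 6.02% higher and 1.07% lower. Scaling by the 50th percentile in place of the 75th moved the median ratio of all liver probes from 0.08 to −0.23, so that liver ratios are given relative to the median of all evaluated probes as well. *Scarb1* had a log2 ratio of −0.44, or −0.50 relative to that median, and its probes disagreed with −0.05 and −0.83. *Cyp17a1* was at −0.29 and *Hsd17b1* at −0.26, or −0.35 and −0.32 relative to the median. *Star* was lower by at least 0.21 on the 1 probe that could be evaluated. *Hsd3b1* was at 0.15 and *Fdx1* at 0.03, or 0.08 and −0.03 relative to the median, and the sign of *Fdx1* therefore depends on the scaling. On the BHPF liver array 5 of 6 neutrophil markers were at least 2-fold lower (median −2.42, summed level 51.4 in control and 23.3 with BHPF), as was 1 of 4 adipocyte markers, *Cfd*. Their part in the liver ratios was not tested.

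The genes that supply these enzymes with cholesterol and electrons were compared next. For these and the lists that follow, the counts between tissues stand beside 8.53% of all probes called higher and 9.33% lower than in uterus, and 22.4% higher and 16.9% lower than in liver. Counts of genes past 2-fold with BHPF in the ovary stand beside 1.27% of all evaluated probes. Of 15 genes of cholesterol supply, 4 were called higher in ovary than in uterus and 0 lower, and 1 was called higher than in liver and 7 lower. *Soat1*, which esterifies cholesterol for storage and is named because it was the 1 gene called higher than in liver, had levels of 2.30 and 2.25 in the control and BHPF ovary, 0.07 and 0.11 in the uterus and −0.84 and −1.17 in the liver. It was higher in ovary than in uterus by 2.18 (limma adjusted p = 0.0045) and than in liver by 3.28 (limma adjusted p = 0.00087). With BHPF 0 of the 15 genes differed by 2-fold in the ovary, and their ratios ran from −0.15 for *Stard3* to 0.34 for *Lipe*, the hormone-sensitive lipase. Of 6 electron transfer partners measured, *Fdxr*, the reductase that feeds electrons to *Fdx1*, had levels of 2.31 and 2.18 in the ovary, −0.53 and −0.41 in the uterus and lay between the other tissues in the liver. It was the 1 gene of the list called higher in ovary than in uterus, and also the 1 called higher than in liver (differences of 2.71 and 1.20). *Por*, the reductase of the P450 enzymes of the endoplasmic reticulum, was lower in ovary than in liver (difference −2.88), as were 4 of the 6 genes. With BHPF the 6 genes lay between −0.13 for *Fdxr* and 0.12 for *Cyb5a* in the ovary.

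Among 22 other steroid enzymes tested, 8 were called higher in ovary than in uterus and 2 lower, and 3 were called higher than in liver and 14 lower. *Hsd17b7*, which acts in cholesterol and oestradiol synthesis, was higher in ovary than in uterus by 2.08 and lower than in liver, with a difference of −1.91. *Cyp11b1*, which makes glucocorticoids in the adrenal cortex, was not well above background on any array. Of the 2 probes of *Cyp21a1*, an adrenal enzyme, 1 was well above background, and its ratio in the ovary was 0.35, the upper end of the list. The lower end was *Akr1c18*, which inactivates progesterone, with levels of −1.80 in the control and −2.64 in the BHPF ovary, a ratio of −0.84. In the ovary 0 of 20 evaluated genes differed by 2-fold. In the uterus 4 of 18 lay past 2-fold, all 4 of them higher with BHPF, where 2.65% of all probes lay past 2-fold and 1.88% were higher. All 4 were dim on the control uterus array and were evaluated through the BHPF array alone, so that the count is a description. These 4 are *Hsd3b2*, *Hsd3b3*, *Hsd3b6* and *Akr1c6*, of which the rule for named genes holds *Hsd3b6* and the others were chosen after their values were seen. They were higher by at least 1.40, 3.48, 1.05 and 5.09 on the log2 scale. All 4 were bright in the liver, and the part of the hepatocyte markers, 8 of 8 of which were higher on the same array, was not tested. The summed level of these markers, in units of the 75th percentile of the array, was 1.53 on the control and 26.1 on the BHPF uterus array, against 293 on the control liver array. In the liver 2 of 20 evaluated genes were past 2-fold, where 7.09% of all probes were, *Cyp21a1* with a ratio of −1.06 and *Cyp11b2*, named after its values were seen, which was higher by at least 1.58.

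Of 16 transcription regulators, 6 were called higher in ovary than in uterus and 2 lower, and 7 were called higher than in liver and 2 lower. *Nr5a1*, known as steroidogenic factor, had levels of 2.68 and 2.68 in the control and BHPF ovary, −1.26 and −1.31 in the uterus and −0.21 and −0.04 in the liver, and it was higher in ovary than in both (differences of 3.96 and 2.80). Its relative *Nr5a2* was higher in ovary than in uterus by 4.04 and, with a difference of 1.11, was not called on both probes against the liver. In the ovary 0 of the 16 regulators differed by 2-fold with BHPF, and the lowest ratio was −0.61 for *Crem*, a cyclic AMP-responsive factor. Of 22 genes of gonadotropin signal and its targets that were tested, 8 were called higher in ovary than in uterus and 1 lower, and 9 were called higher than in liver and 3 lower. *Inha*, the inhibin subunit that granulosa cells make under follicle-stimulating hormone, had levels of 4.35 and 4.40 in the ovary, −0.10 and −0.39 in the uterus and −4.56 in the control liver. *Fst*, the activin-binding follistatin, was higher in ovary than in uterus by 2.98 and than in liver by 3.81. *Prlr*, the prolactin receptor, was higher in ovary than in uterus by 2.73, and its probes gave no common call against the liver. With BHPF 0 of 21 evaluated genes differed by 2-fold in the ovary. *Inha* had a ratio of 0.05, *Fst* of 0.06 and *Prlr* of −0.07, and the ends of the list were −0.26 for *Pde4d* and 0.43 for *Pde8a*, both phosphodiesterases that break down cyclic AMP.

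**Figure D4:**
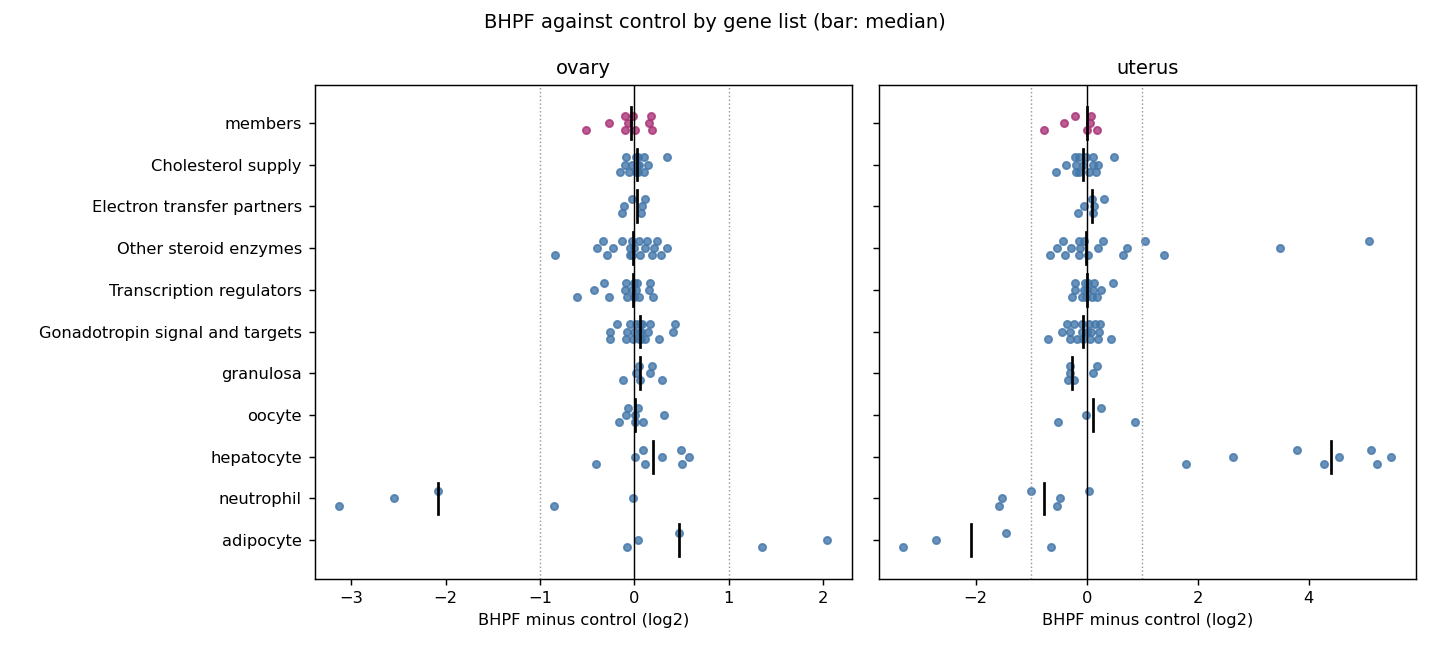
Log2 ratio of BHPF to control in ovary (left) and uterus (right), with 1 point for each gene by list, bars at the list median and dotted lines at 2-fold. Of the lists drawn, in the ovary the 10 genes and the 5 pathway lists lie within 2-fold while 3 neutrophil and 2 adipocyte markers do not, and in the uterus all 8 hepatocyte markers lie above 2-fold.

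Cell type markers were compared between the ovary arrays. The 7 granulosa cell markers lay between −0.12 for *Gja1* and 0.29 for *Kitl*, the 8 oocyte markers between −0.16 for *Nlrp5* and 0.32 for *Gdf9*, and the 5 markers of theca and interstitial cells between −0.10 for *Cyp17a1* and 0.31 for *Gli1*. None of these 20 values reached 2-fold. *Cyp17a1* is also one of the 10 genes described here, and the other theca and interstitial markers lay between 0.04 for *Aldh1a1* and 0.31 for *Gli1*. The summed level of the granulosa cell markers was 47.3 in control and 49.5 with BHPF, and that of the oocyte markers 30.5 and 31.0. The 3 genes listed as markers of the corpus luteum were below 0. Their median of −0.84 is the bound of *Ptgfr* and not a measured ratio. Whether these ovaries held corpora lutea was not tested. *Akr1c18* was at −0.84, *Ptgfr*, dim with BHPF, was lower by at least 0.84, and *Cyp11a1* was at −0.10. Their summed level was 8.30 in control and 7.64 with BHPF. Most of that sum was *Cyp11a1*, which is also one of the steroid synthesis genes described here. Without *Cyp11a1* the sum was 0.322 in control and 0.180 with BHPF. Markers of some other cells differed, where 0.593% of all ovary probes were at least 2-fold lower and 0.681% higher. Of 5 neutrophil markers evaluated 5 were below 0 and 3 at least 2-fold lower, *S100a8* (−3.13), *S100a9* (−2.55) and *Retnlg* (−2.08), while *Csf3r* was at −0.01. Of 5 adipocyte markers evaluated 2 were at least 2-fold higher, *Cfd* (2.05) and *Adipoq* (1.35). *Retn* was at 0.48, *Fabp4* at 0.04 and *Plin1* at −0.07. The summed level of the adipocyte markers went from 3.14 to 3.89, or from 0.924 to 1.61 without *Fabp4*, the brightest of them. The oviduct marker *Foxj1* had a ratio of −1.16 and *Ovgp1* of −0.74. The summed level of the 3 oviduct markers went from 0.688 to 0.404 and that of the neutrophil markers from 13.03 to 11.3, or from 1.94 to 0.308 without *Csf3r*, the brightest of them. Of the adrenal markers *Cyp11b1* was not above background, *Cyp21a1* (0.35) and *Akr1b7* (−0.22) were above background on both arrays, and *Mc2r* and *Cyp11b2*, dim with BHPF, were lower by at least 0.69 and 0.39. The hepatocyte markers lay between −0.40 for *Tat* and 0.58 for *Ttr*, and those of smooth muscle between 0.03 for *Actg2* and 0.16 for *Des*. Those of Müllerian duct tissue that were above background on both arrays lay between −0.02 for *Hoxd10* and 0.27 for *Wnt7a*. *Hoxa10*, another marker of that tissue, was dim with BHPF and lower by at least 0.55. The part of these shifts in the ratio of *Star* was not tested.

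The genes most like each of the 10 were found among the 15016 genes that both ovary arrays measured above background, by the root mean square difference over the 6 arrays of the level minus the mean of the gene in the ovary. Dim values were set at the lowest signal called well above background, so for the genes dim outside the ovary the likeness rests on the ovary arrays and on that floor. The gene most like *Cyp17a1* was *Hsd3b1*, and the reverse, at 0.32 on the log2 scale, and *Serpina5* and *Gata4* followed for both. *Gata4* had levels of 1.61 and 1.61 in the control and BHPF ovary and 0.32 and −0.0029 in the liver and was not well above background in the uterus. *Fshr* was most like *Khdc1b* (0.07), *Oosp1* (0.08) and *Padi6* (0.10), of which *Oosp1* is an oocyte marker. *Cyp11a1* was most like *Acsbg1* (0.19), *Obox5* (0.33) and *Akr1cl* (0.46), and *Cyp19a1* like *Dynap* (0.16), *Oog2* (0.16) and *Accsl* (0.16). *Hsd17b1* was most like *Cpa1* (0.29), *Umodl1* (0.30) and *Nlrp14* (0.35), and *Lhcgr* like *Gm4566* (0.02), *Tcl1b3* (0.06) and *Oca2* (0.07). *Star* was most like *Dppa5a* (0.14), *Plau* (0.17) and *Cmtm2a* (0.22). The genes measured in every tissue had other partners, *Gnat2* (0.02), *Vkorc1l1* (0.11) and *Aldh1a1* (0.11) for *Fdx1* and *Arrdc2* (0.05) and *Dennd4a* (0.08) for *Scarb1*.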

How the data were processed

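The authors deposited scanner files from Feature Extraction (version 9.1 per the labels, 11.5.1.1 per the file headers) with a background-subtracted, detrended intensity per spot on a linear scale, not normalised between arrays. They also deposited log2 values, made with GeneSpring, which equal the log2 intensity minus a constant per array. From each array control and outlier spots were removed, repeated spots were averaged as log2 intensity, and the array's own 75th percentile was taken off. No spot was saturated. Symbols came from RefSeq (26762 probes), and probes of 1 gene were averaged. The array design names build mm9, so coordinates are given for promoter windows only.

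Ratios were computed for probes that passed the scanner's background call on 1 or both arrays of a tissue. Where 1 array was dim, it entered at its lowest intensity that passed the call, or at the probe's own if higher, and the ratio is a bound. Where such a bound would turn the sign it was set to no difference. Tissues were compared with limma 3.58.1 in R 4.3.3 (tissue and treatment as terms, Benjamini-Hochberg adjustment over all 44119 probes, called below 0.05 and at least 2-fold), tested on simulated data. The 10 genes, the lists and the rule for named genes were chosen with earlier results of these data known. The rule names the 10 genes, 13 fixed genes, the highest and lowest ovary ratio of each list among genes measured above background on both, list genes at least 2-fold different in the ovary, and the 3 genes most like each of the 10. *Fdx1l*, *Sts* and *Insl3* had no matched probe. *Soat1* was named after its values were seen, and some genes that the rule names are not reported here.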

Additional observations from a re-analysis of the deposited data

How the results depend on the processing

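The alternatives were background correction by normexp with an offset of 50, run on median signals as the files hold no mean signal, scaling by the 50th percentile, by quantiles, or by the probes that every array measured, the authors' table with its headings kept or with the uterus columns switched, the brightest probe of a gene, a tissue fit with no treatment term, other treatments of dim probes, a threshold of 4-fold, and the control or BHPF arrays alone, which give values with no test. The count of genes called higher in ovary than in uterus was 8 and became 5 with the authors' table under either heading, and the count against liver was 8 and became 4, as that table holds no values for dim probes. The count of genes at least 2-fold different in the uterus was 0 and became 1 with the authors' table under either heading, with dim probes at their own value and with no filter on them, through *Cyp19a1*. The other 57 values of the counts and of the median over the genes kept their direction and their side of the threshold. The ovary ratio of *Star* ran from −0.97, with the brightest probe, to −0.44. With normexp that of *Fshr* was 0.41. Of 166 tested tissue differences of single genes, 164 kept their call, 0 turned around and 2 became calls, those of *Fdx1* against liver with the 50th percentile (−1.28) and with its brightest probe (−1.04), while 50 moved by more than their SE. Of 140 values with no test 28 moved by more than the error of repeated spots. With normexp 3 differences lay under the bound given for them, *Cyp19a1* against liver (5.96), *Cyp11a1* against uterus (8.20) and *Fshr* against liver (7.19). The labels carry no replicate numbers, and they do not say whether the 3 tissues of a treatment came from the same mice. The treatment term of the fit sets tissues against each other within a treatment. If the mice were the same, it also takes up what their pools share. Genes dim on 1 array of a tissue, such as *Cyp19a1* in the uterus, have values that rest partly on a dim signal.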
